A study of Mus musculus with 12 samples.

Results

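The nuclear-encoded respiratory chain genes are the genes in chromosomes of the nucleus that code for subunits of the 5 complexes of oxidative phosphorylation. They were chosen by name: symbols of the Nduf series (a, ab, b, c, s and v, each followed by a number), Sdha to Sdhd, symbols that begin with Uqcr, Cyc1, symbols that begin with Cox4 to Cox8, and symbols that begin with Atp5, without names that contain -ps. Of 89 matching identifiers, 5 carried -ps and were left out, so 84 of the 53932 identifiers in the tables are members: 37 of complex I, 4 of complex II, 9 of complex III, 17 of complex IV and 17 of complex V. The rule reads names and no measured value, though it was set with earlier results of these data known. RNA was sequenced from 12 libraries of cultured cells of C57BL/6 mice, 3 in each of 4 groups. MIM-Astrocytes are astrocytes moved from serum to a medium with up to 6 metabolites (cysteine, glycine, methionine, putrescine, threonine and S-adenosylmethionine; the labels do not say which were used here), B27, N2 and FGF2 at 20 ng/mL, and collected by day 5. Glioblastoma is a tumour culture labelled as cerebella and E18.5, and how it was made is not given in the sources used here. NSC are neural stem cells grown as neurospheres from E14.5 cortex with EGF and FGF2 at 20 ng/mL each, and Astrocytes are cells grown in 10% serum with B27. Both astrocyte groups are labelled cortex and E14.5, and the labels leave unsaid whether they came from sorted postnatal cortex or from differentiated neurospheres. The treatment protocol describes a parallel control, from the batch that was treated, left in its usual medium.

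Complex I takes electrons from NADH and complex II from succinate, and both pass them to ubiquinone. Complex III moves them on to cytochrome c and complex IV to oxygen. Complexes I, III and IV pump protons across the inner mitochondrial membrane, and complex V, the ATP synthase, lets them back to make ATP. All of complex II is encoded in the nucleus, whereas the other complexes also hold subunits from the mitochondrial genome. Several subunits of complex IV come in tissue-restricted isoforms, among them forms made mainly in heart and skeletal muscle. Cultured astrocytes and many proliferating cells are known for strong glycolysis beside respiration.

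Values are FPKM, fragment counts divided by the length of the transcript and by how many fragments mapped, so levels can be set side by side between genes. The sum of FPKM ranged from 514728 to 979106 per library, and nuclear protein-coding genes made up 46.6% of it on average in MIM-Astrocytes, 43.2% in Glioblastoma, 40.3% in NSC and 58.9% in Astrocytes. The tables hold no counts, so the number of reads per library is unknown. The deposited interval reached a median of 4.63% to 5.80% of a member's value to either side, depending on the library. Libraries of 1 group correlated at 0.968 to 0.977 over the genes tested, and genes do not count as replicates. The summed level of 10 astrocyte markers was 1804 to 2201 FPKM in MIM-Astrocytes, 575 to 604 in Glioblastoma, 969 to 1111 in NSC and 1894 to 2212 in Astrocytes. Between MIM-Astrocytes and Astrocytes, single astrocyte markers went different ways behind these sums. Gfap stood at 7.11 to 7.50 FPKM in MIM-Astrocytes and 241 to 273 in Astrocytes, and the water channel Aqp4 at 34.1 to 36.4 and 373 to 427. Slc1a3 stood at 705 to 965 FPKM in MIM-Astrocytes and 362 to 427 in Astrocytes, and S100b at 24.6 to 26.0 and 5.33 to 6.44. Aqp4 and the connexin Gjb6 were below 1 FPKM in Glioblastoma, and all 7 microglial markers were below 1 FPKM in every group. The 7 meningeal fibroblast markers summed to 19.2 to 21.9 FPKM in MIM-Astrocytes and 0.417 to 0.676 FPKM in Glioblastoma. Their sum was 1.13 to 1.40 FPKM in NSC and 238 to 286 FPKM in Astrocytes. In Astrocytes Ogn was highest with a mean of 164 FPKM, while Dcn, Pdgfrb, Col1a2 and Lum, 4 of the 7, were below 1 FPKM. In MIM-Astrocytes Islr was highest with a mean of 17.1 FPKM, and 5 of the 7 were below 1 FPKM. The 8 neural stem or progenitor markers, mostly Fabp7, summed to 4253 to 4634 FPKM in MIM-Astrocytes, 936 to 1081 in Glioblastoma, 2869 to 3383 in NSC and 854 to 1072 in Astrocytes. Fabp7 alone stood at 3876 to 4260 FPKM in MIM-Astrocytes and 2422 to 2904 in NSC. Other markers followed orders of their own. Hes5 stood at 35.9 to 45.3 FPKM in MIM-Astrocytes, 87.4 to 95.8 in Glioblastoma, 99.2 to 125 in NSC and 0.583 to 0.782 in Astrocytes. Pax6 stood at 15.3 to 17.6, 3.41 to 3.87, 16.9 to 18.8 and 20.5 to 24.4 FPKM in the same order of groups. The 8 oligodendrocyte lineage markers summed to 438 to 506 FPKM in MIM-Astrocytes, 324 to 331 in Glioblastoma, 387 to 452 in NSC and 62.2 to 72.6 in Astrocytes. The 9 neuronal markers, mostly Map2, summed to 174 to 197 FPKM in MIM-Astrocytes, 211 to 226 in Glioblastoma, 295 to 327 in NSC and 114 to 119 in Astrocytes. The part of cell types or states in the results was not tested. Whether libraries of 1 group are separate cultures or animals is not stated, so p-values speak only of the spread seen among libraries, which may be technical.

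The promoters of respiratory chain genes are known for sites of the nuclear respiratory factor NRF1 and of ETS factors such as GABP (also called NRF2). RefSeq windows from 250 bases before to 50 bases after a gene's start (GRCm38.p6) were found for 67 of the 84 members, 72 windows in all. The palindromic core of NRF1, with 1 free base in its middle, stood on either strand in 25.0% of them, against 4.60% of 32851 windows of all genes. The ETS core CCGGAAG stood in 22.2% against 8.86%, and the YY1 core AAGATGGCG in 9.72% against 1.40%. The TATA box letters TATAAA were in 11.1% against 13.6%, and the Sp1 box GGGCGG in 38.9% against 35.7%. By complex, the NRF1 core was in 22.9% of windows of complex I, 66.7% of complex II (3 windows), 20.0% of complex III, 7.69% of complex IV and 37.5% of complex V. The median GC content was 57.3% in the members' windows and 52.7% in all windows. The sequences shown are the 150 bases just before the RefSeq start of Sdha, of 3 genes that were lower in Glioblastoma than in NSC (Atp5j, Uqcrh and Cox7b), and of a common and a restricted isoform gene of complex IV (Cox6a1 and Cox7a1). They run 5′ to 3′ on the gene's strand, and capitals mark a match to one of the 5 motifs on either strand, so that an ETS core may read CTTCCGG and an Sp1 box CCGCCC. Sdha is at chr13:74350241-74350390 on the minus strand, Atp5j at chr16:84834977-84835126 on the minus strand, Uqcrh at chr4:116075071-116075220 on the minus strand, Cox7b at chrX:106015550-106015699 on the plus strand, Cox6a1 at chr5:115348959-115349108 on the minus strand and Cox7a1 at chr7:30184021-30184170 on the plus strand.
Sdha: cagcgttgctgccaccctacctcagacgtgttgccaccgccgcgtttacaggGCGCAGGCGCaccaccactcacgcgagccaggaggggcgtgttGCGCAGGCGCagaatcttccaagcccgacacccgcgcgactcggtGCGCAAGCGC
Atp5j: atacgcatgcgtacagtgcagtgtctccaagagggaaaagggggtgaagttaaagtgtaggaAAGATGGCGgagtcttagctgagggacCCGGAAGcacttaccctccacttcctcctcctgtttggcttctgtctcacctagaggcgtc
Uqcrh: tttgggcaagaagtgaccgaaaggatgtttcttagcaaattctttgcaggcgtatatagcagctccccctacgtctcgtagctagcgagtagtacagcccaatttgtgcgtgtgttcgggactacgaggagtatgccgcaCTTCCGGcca
Cox7b: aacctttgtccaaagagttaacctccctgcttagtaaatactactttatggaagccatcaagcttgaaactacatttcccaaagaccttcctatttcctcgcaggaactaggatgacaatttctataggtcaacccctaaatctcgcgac
Cox6a1: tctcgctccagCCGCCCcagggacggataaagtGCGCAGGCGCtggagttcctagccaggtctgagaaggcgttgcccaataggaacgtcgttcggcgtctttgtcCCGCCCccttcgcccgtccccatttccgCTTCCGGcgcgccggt
Cox7a1: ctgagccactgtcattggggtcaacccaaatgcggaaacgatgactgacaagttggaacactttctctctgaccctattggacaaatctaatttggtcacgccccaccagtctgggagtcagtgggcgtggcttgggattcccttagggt
The Sdha stretch holds 3 NRF1 cores, Atp5j an ETS and a YY1 core, Uqcrh 1 ETS core, and Cox6a1 NRF1, ETS and Sp1 letters. Another RefSeq window of Atp5j, at chr16:84835576-84835875 and not shown, holds an Sp1 box and neither an ETS nor a YY1 core. The Cox7b and Cox7a1 stretches hold none of the 5 motifs. A match describes letters in this window and shows neither binding nor its absence.

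Of the 84 members, 81 passed the filter of 1 FPKM in at least 3 libraries and were tested. The other 3 are restricted isoform genes of complex IV. Cox4i2, a form of subunit 4 known from lung, was listed at 0 in all MIM-Astrocytes, at 0.0796 to 0.143 FPKM in Glioblastoma, at 0 to 0.0655 FPKM in NSC and at 0.208 to 0.436 FPKM in Astrocytes. Cox7b2 was listed at 0 except for 0.0615 FPKM in 1 Glioblastoma library, and Cox8c at 0 except for 0.0853 FPKM in 1 Astrocytes library. Cox4i1, the common form of subunit 4, was not analysed here. Among the others, median levels were highest in complexes IV and V. In MIM-Astrocytes the median over members was 112.5 FPKM in complex I, 133 in complex II, 178 in complex III, 328 in complex IV and 253 in complex V, and in NSC it was 68.5, 62.8, 89.6, 155 and 154 FPKM in the same order of complexes. Cox6b1, a subunit on the intermembrane side of complex IV, and Atp5b, the catalytic beta subunit of ATP synthase, had the highest values among the members. This order leaves out near-identical copies, which are described below. The copies of Cox7c alone averaged 2046 FPKM in MIM-Astrocytes, 1367 in Glioblastoma, 1299 in NSC and 1074 in Astrocytes. Cox6b1 stood at 1138, 1280.4 and 1149.9 FPKM in MIM-Astrocytes, 659, 798 and 858 in Glioblastoma, 754, 733 and 621 in NSC and 905, 1038 and 788 in Astrocytes. The rule also catches Atp5s and Atp5sl, which are named after the synthase but are not among its classical subunits. Ndufa4 is counted here with complex I by its name and is known as a subunit of complex IV.

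With FPKM as deposited, respiratory chain genes were mostly lowest in NSC and mostly highest in MIM-Astrocytes. Between MIM-Astrocytes and Astrocytes the order depended on how libraries were scaled, as given below. The lowest group mean was that of NSC for 65 of 81 members (80.2%, against 24.4% of the 16982 genes tested). The highest was that of MIM-Astrocytes for 44 members (54.3%, against 14.6% of all genes), of Glioblastoma for 25, of Astrocytes for 11 and of NSC for 1, Cox8b. Members made up 5.10%, 5.44% and 5.16% of the FPKM sum of nuclear protein-coding genes in MIM-Astrocytes, 3.69%, 3.98% and 4.01% in Glioblastoma, 3.42%, 3.29% and 3.18% in NSC and 4.19%, 4.44% and 3.96% in Astrocytes. On this share, every MIM-Astrocytes library lay above, and every NSC library below, all libraries of the other groups, while Glioblastoma and Astrocytes overlapped. In bulk RNA, fewer cells with a transcript and less of it in each cell cannot be told apart.

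**Figure D1:**
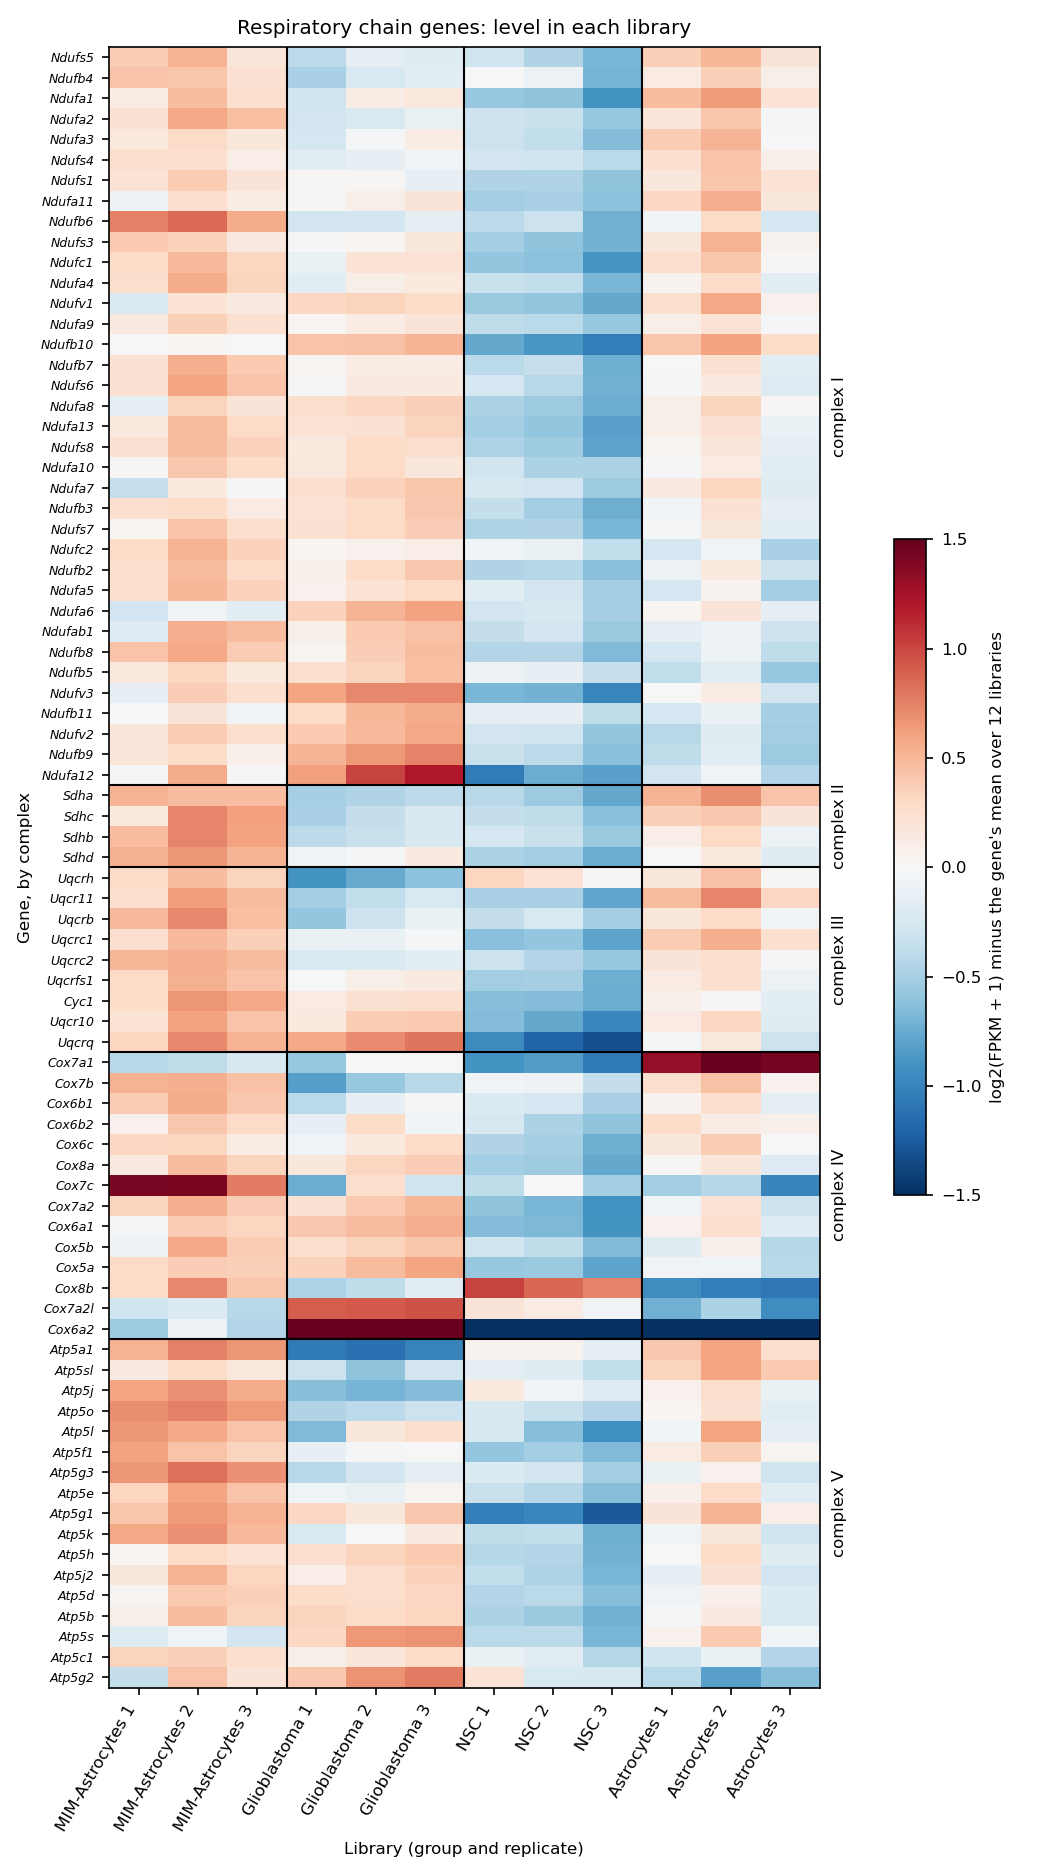
Heat map of respiratory chain genes that were tested (rows, by complex, without 1 gene that is not reported here) in each of the 12 libraries (columns), as log2(FPKM + 1) minus the gene's mean over all libraries, with colours clipped at 1.5 in both directions. The NSC columns are mostly blue, 65 of the 81 genes tested having their lowest group mean there, and Cox6a2 is deep red in the 3 Glioblastoma libraries.

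Each pair of groups was compared with limma on log2(FPKM + 1) over all 12 libraries, with p-values adjusted by Benjamini and Hochberg over 16982 genes, and "called" means an adjusted p under 0.05. Differences below are on this log2 scale, first group minus second. They understate changes of low genes, and by much where a group lies near or below 1 FPKM. The 6 comparisons share groups, so they are not independent of each other. Counts by complex and by list are to be read beside the shares of all genes called, given below for each comparison.

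NSC had less of most members than any other group. In NSC against Astrocytes, 63 of 81 members were lower (33.4% of all genes were called lower) and 3 were higher (37.7% of all genes), with a median difference of -0.55, against 0.07 over all genes. In MIM-Astrocytes against NSC, 73 members were higher (31.0% of all genes) and 2 were lower (24.9% of all genes), with a median of 0.84, against 0.02 over all genes. In Glioblastoma against NSC, 60 members were higher (44.8% of all genes) and 5 were lower (25.1% of all genes), with a median of 0.66, against 0.19 over all genes. These 3 medians kept their sign under 4 other scalings of the libraries, namely median of ratios, quantiles, a common FPKM sum and a common sum of nuclear protein-coding genes. They ranged from -0.94 to -0.40, from 0.69 to 0.90 and from 0.31 to 0.45.

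The counts in MIM-Astrocytes against Astrocytes and in Glioblastoma against Astrocytes depended on the scaling. In MIM-Astrocytes against Astrocytes, 38 members were higher (34.8% of all genes were called higher) and 2 were lower (26.6% of all genes), with a median of 0.32, against 0.09 over all genes. The split was 32 higher and 8 lower under median-of-ratios scaling, 25 and 21 under quantile scaling, 13 and 18 with a common FPKM sum and 53 and 7 with a common protein-coding sum. Without MIM-Astrocytes replicate 2 or without Astrocytes replicate 3 23 members were called higher. In Glioblastoma against Astrocytes, 28 members were higher (47.0% of all genes) and 21 lower (31.3% of all genes), with a median of 0.07, against 0.23 over all genes. The split was 12 higher and 39 lower under median-of-ratios scaling, 9 and 60 under quantile scaling, 7 and 58 with a common FPKM sum and 25 and 35 with a common protein-coding sum. It was 16 and 24 without Astrocytes replicate 3, and 18 members were higher without Glioblastoma replicate 3. In MIM-Astrocytes against Glioblastoma, 32 members were higher (28.3% of all genes) and 11 lower (41.5% of all genes), with a median of 0.17, against -0.13 over all genes. The other scalings gave 50 to 62 higher and 5 to 10 lower.

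The median of the members minus that of all genes was -0.16 in Glioblastoma against Astrocytes with FPKM as deposited and -0.50 to -0.19 under the 4 other scalings. In MIM-Astrocytes against Astrocytes it was 0.24 as deposited and 0.01 to 0.24 otherwise, and 0.01 was the value under quantile scaling. In MIM-Astrocytes against Glioblastoma it was 0.30 as deposited and 0.34 to 0.52 otherwise. With a common FPKM sum the median of all genes was -0.26 in Glioblastoma against Astrocytes, -0.17 in MIM-Astrocytes against Astrocytes and -0.24 in NSC against Astrocytes, where it was 0.23, 0.09 and 0.07 as deposited. Within a group, 1 library was often the highest for most members. MIM-Astrocytes replicate 2 was the highest of its group for 73 of 81 members, Glioblastoma replicate 3 for 70, NSC replicate 1 for 59 and Astrocytes replicate 2 for 76.

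**Figure D2:**
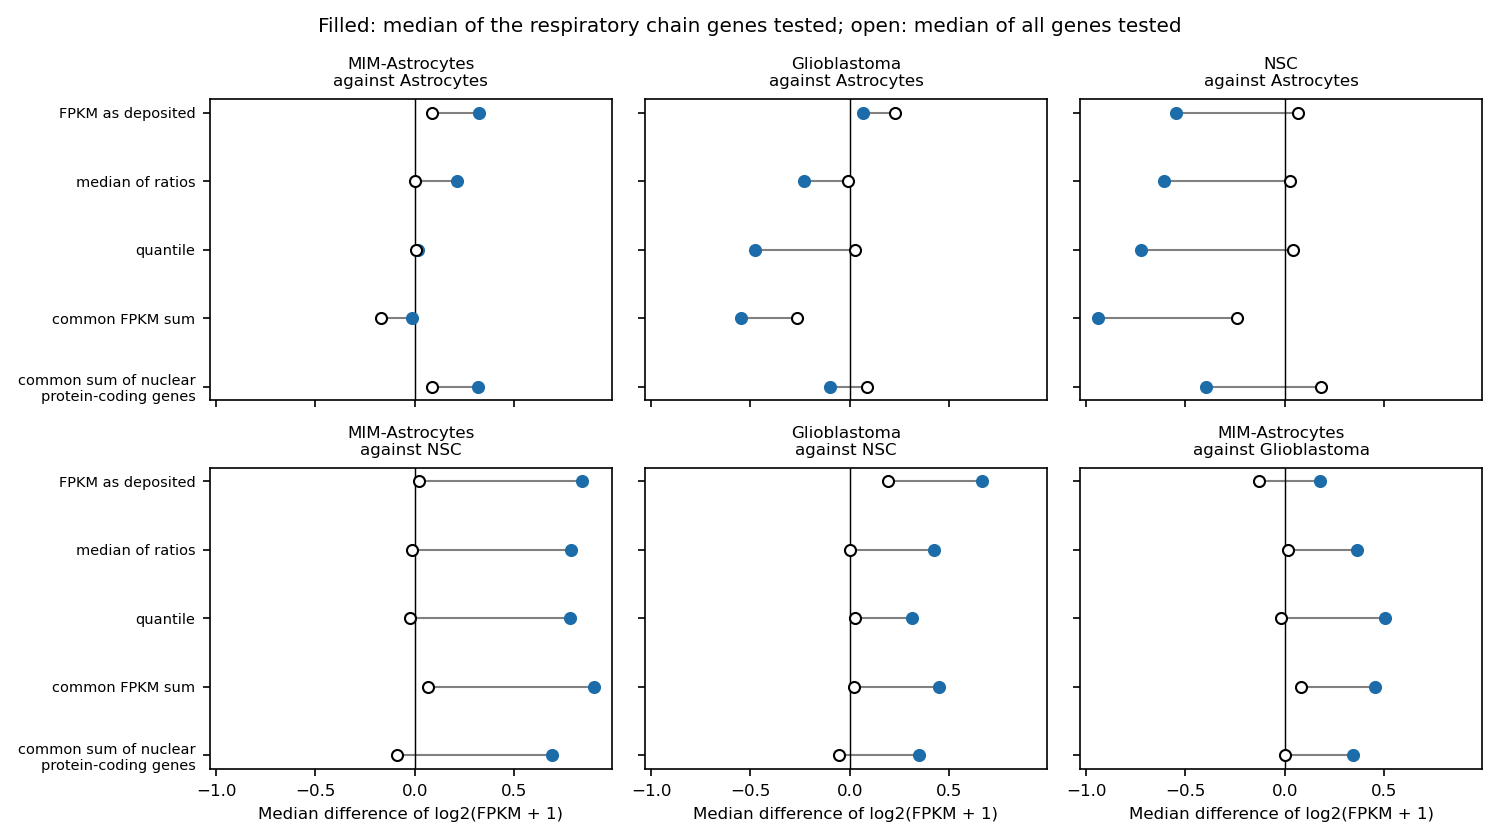
Median difference of log2(FPKM + 1) over the 81 respiratory chain genes tested (filled) and over all 16982 genes tested (open), with FPKM as deposited and under 4 other scalings, 1 panel per comparison. The filled points stay left of 0 in NSC against Astrocytes and right of 0 in both other comparisons with NSC, while in Glioblastoma against Astrocytes the filled point is at 0.07 as deposited and left of 0 under every other scaling drawn, and in MIM-Astrocytes against Astrocytes it is at -0.01 with a common FPKM sum.

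In complex I, NSC stood below every other group and the other groups differed gene by gene. None of 37 members was higher and 29 were lower in NSC than in Astrocytes (median -0.53), 34 were higher and none lower in MIM-Astrocytes than in NSC (0.74), and 32 were higher and none lower in Glioblastoma than in NSC (0.67). In MIM-Astrocytes against Astrocytes 12 were higher, close to the 34.8% of all genes, and 1 was lower, against 26.6% of all genes. The median was 0.23, but -0.01 under quantile scaling and -0.10 with a common FPKM sum. In Glioblastoma against Astrocytes 15 were higher and 7 lower (median 0.18, but -0.11 under median-of-ratios scaling, -0.28 under quantile scaling and -0.43 with a common FPKM sum). By module, the 10 genes of the NADH-oxidising N module counted 4 higher and 3 lower in Glioblastoma against Astrocytes, the 6 of the quinone-binding Q module 3 and 0, and the 20 of the membrane arm 8 and 4, beside 47.0% higher and 31.3% lower over all genes, but all 3 medians were below 0 under median-of-ratios and quantile scaling and with a common FPKM sum.

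Ndufv1 carries the flavin that takes up the electrons of NADH. It stood at 121, 164 and 155 FPKM in MIM-Astrocytes, 175, 178 and 172 in Glioblastoma, 96.1, 93.7 and 82.4 in NSC and 167, 211 and 148 in Astrocytes. The NSC libraries lay below all others, and the other 3 groups were not called different from each other (NSC against Astrocytes -0.93, SE 0.14, adjusted p = 0.000174). Ndufs1, the largest iron-sulfur subunit, stood at 74.4, 83.3 and 73.4 FPKM in MIM-Astrocytes, 64.5, 64.5 and 58.8 in Glioblastoma, 46.6, 46.3 and 41.8 in NSC and 72, 85.8 and 74.3 in Astrocytes. Here Glioblastoma was between NSC and both astrocyte groups without overlap (against Astrocytes -0.30, SE 0.08, adjusted p = 0.00706). Eef1b2, on the opposite strand at the Ndufs1 locus, averaged 216 FPKM in MIM-Astrocytes, 723 in Glioblastoma, 365 in NSC and 102 in Astrocytes, and whether its reads entered the value of Ndufs1 was not tested.

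Some accessory subunits of complex I followed their own order. Ndufb10, of the membrane arm, stood at 101, 104 and 101 FPKM in MIM-Astrocytes, 136, 138 and 144 in Glioblastoma, 59.1, 54.6 and 48.6 in NSC and 135, 154 and 122 in Astrocytes. It was the 1 member of complex I called lower in MIM-Astrocytes than in Astrocytes (-0.42, SE 0.09, adjusted p = 0.00219), and it was lower in NSC than in Astrocytes by the largest difference in the complex (-1.32, SE 0.09, adjusted p = 3.17e-07). Ndufv3, a small subunit of the N module, was highest in Glioblastoma at 185, 200.4 and 202 FPKM, against 112, 158 and 145 in MIM-Astrocytes, 75.1, 74.1 and 61.1 in NSC and 122, 131 and 101 in Astrocytes. The Glioblastoma libraries overlapped no other group (against NSC 1.47, SE 0.14, adjusted p = 5.70e-06). Ndufb6, of the membrane arm, was highest in MIM-Astrocytes at 89.2, 95.2 and 77.9 FPKM, against 43.4, 42.9 and 47.5 in Glioblastoma, 39.9, 41.8 and 31.4 in NSC and 51, 64.3 and 43.5 in Astrocytes (against Astrocytes 0.73, SE 0.15, adjusted p = 0.00158). Ndufa4, with 564, 686 and 588 FPKM in MIM-Astrocytes, 417, 498 and 516 in Glioblastoma, 371, 363 and 289.6 in NSC and 486, 564 and 419 in Astrocytes, had the highest level in the complex in all 4 groups. Its paralogue Ndufa4l2, which is no member, stayed at or below 1.40 FPKM in all libraries.

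Complex II separated both astrocyte groups from Glioblastoma and NSC. All 4 genes were higher in MIM-Astrocytes than in Glioblastoma (median 0.89) and than in NSC (1.02), all 4 were lower in NSC than in Astrocytes (-0.67), and 3 of 4 were lower in Glioblastoma than in Astrocytes (-0.55). Between Glioblastoma and NSC the median was 0.11 as deposited and -0.21 to -0.11 under the 4 other scalings, and Sdhd alone was called. The complex made up 0.165%, 0.181% and 0.180% of the protein-coding FPKM sum in MIM-Astrocytes, 0.0841%, 0.0871% and 0.0905% in Glioblastoma, 0.0991%, 0.0952% and 0.0914% in NSC and 0.151%, 0.151% and 0.148% in Astrocytes. The 4 groups did not overlap on this share, and Glioblastoma was lowest.

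Sdha, the flavoprotein that oxidises succinate (chr13:74322254-74350280, minus strand, GRCm38), stood at 159.8, 154 and 155 FPKM in MIM-Astrocytes, 78.9, 81.7 and 85.2 in Glioblastoma, 83.9, 76.4 and 65.5 in NSC and 160.5, 182 and 151 in Astrocytes. The Glioblastoma and NSC libraries overlapped each other and lay far below both astrocyte groups, which also overlapped (Glioblastoma against Astrocytes -0.99, SE 0.09, adjusted p = 3.25e-06, NSC against Astrocytes -1.12, SE 0.09, adjusted p = 1.77e-06). Sdhb, the iron-sulfur subunit, stood at 90.7, 109.6 and 101 FPKM in MIM-Astrocytes, 49.9, 51.9 and 55.3 in Glioblastoma, 55, 51.8 and 44.3 in NSC and 70.7, 81 and 61.9 in Astrocytes. Unlike Sdha, it was called higher in MIM-Astrocytes than in Astrocytes (0.49, SE 0.11, adjusted p = 0.00346). The ratio of Sdha to Sdhb was 1.76, 1.41 and 1.54 in MIM-Astrocytes, 1.58, 1.58 and 1.54 in Glioblastoma, 1.53, 1.48 and 1.48 in NSC and 2.27, 2.25 and 2.44 in Astrocytes, where alone it exceeded 2. Sdhc, a membrane anchor, stood at 181, 271 and 249.8 FPKM in MIM-Astrocytes, 115, 127 and 138 in Glioblastoma, 126, 125 and 105 in NSC and 209, 215 and 186 in Astrocytes. Sdhd, the other anchor, had 106, 116 and 104 FPKM in MIM-Astrocytes, 69.5, 71.6 and 80.4 in Glioblastoma, 52.1, 50.9 and 43.1 in NSC and 73.3, 80.5 and 64.3 in Astrocytes. For Sdhd, Glioblastoma and Astrocytes overlapped (0.02, SE 0.10, adjusted p = 0.833), and MIM-Astrocytes lay above all other groups (against Astrocytes 0.58, SE 0.10, adjusted p = 0.000593).

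Complex III was highest in MIM-Astrocytes for 6 of its 9 members and lowest in NSC for 8. In MIM-Astrocytes, 8 members were higher than in NSC (median 1.02), 7 were higher than in Glioblastoma (0.44) and 5 were higher than in Astrocytes (0.33, but -0.01 with a common FPKM sum), with none lower in these comparisons. In Glioblastoma against Astrocytes 1 member was higher and 5 were lower (median -0.34), and in NSC against Astrocytes 8 were lower and none higher (-0.68). Cyc1, cytochrome c1, stood at 97.9, 128 and 121 FPKM in MIM-Astrocytes, 87.8, 94.6 and 95 in Glioblastoma, 51.2, 50.9 and 47.7 in NSC and 85, 81.6 and 71.9 in Astrocytes. The MIM-Astrocytes libraries were above all others (against Astrocytes 0.53, SE 0.10, adjusted p = 0.000993). Uqcrc1, a core subunit, kept both astrocyte groups together at 133, 158 and 144 FPKM in MIM-Astrocytes and 147, 164 and 134 in Astrocytes, while Glioblastoma had 104, 105 and 110.4 FPKM and NSC had 72.7, 75.2 and 64.4. Uqcrfs1, the Rieske iron-sulfur protein, averaged 89.6 ± 7.68 FPKM in MIM-Astrocytes, 70.7 ± 3.27 in Glioblastoma, 44.3 ± 3.94 in NSC and 71.6 ± 8.18 in Astrocytes (SD, n = 3 each). It was higher in MIM-Astrocytes than in Astrocytes by 0.32 (SE 0.10, adjusted p = 0.0171), and by -0.01 with a common FPKM sum.

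Uqcrh and Uqcrq, small subunits of complex III, went opposite ways in Glioblastoma and NSC. Uqcrh, the hinge protein (chr4:116066965-116075071, minus strand), stood at 507, 574 and 522 FPKM in MIM-Astrocytes, 223, 245 and 270.4 in Glioblastoma, 518, 483 and 419 in NSC and 467, 564 and 421 in Astrocytes. Glioblastoma was the low group, and the other 3 overlapped (Glioblastoma against NSC -0.94, SE 0.13, adjusted p = 7.93e-05, NSC against Astrocytes -0.03, SE 0.13, adjusted p = 0.863). Uqcrq stood at 249.9, 332 and 288 FPKM in MIM-Astrocytes, 297, 327 and 350.0 in Glioblastoma, 103, 86.6 and 79.6 in NSC and 198, 224 and 160.2 in Astrocytes. NSC was the low group here, with no overlap (Glioblastoma against NSC 1.85, SE 0.15, adjusted p = 1.41e-06, NSC against Astrocytes -1.10, SE 0.15, adjusted p = 7.04e-05). The ratio of Uqcrh to Uqcrq was 2.03, 1.73 and 1.81 in MIM-Astrocytes, 0.751, 0.750 and 0.773 in Glioblastoma, 5.05, 5.58 and 5.26 in NSC and 2.35, 2.52 and 2.63 in Astrocytes, so the 4 groups were apart. Neither gene had a near-identical copy by the criterion used here, although a listed pseudogene, Uqcrh-ps1, stood at 11.2 to 35.5 FPKM.

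**Figure D3:**
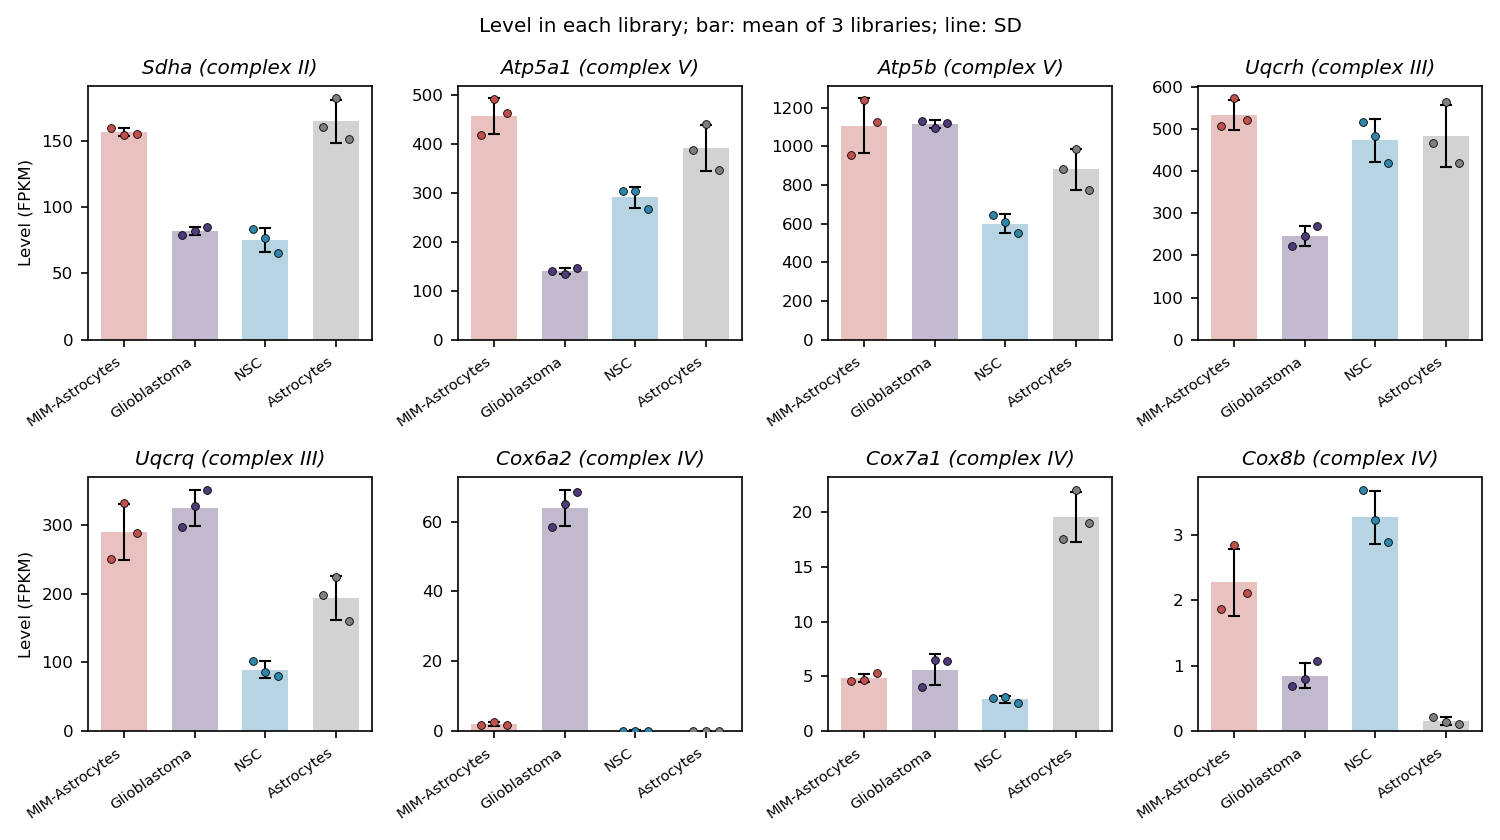
Level in FPKM of 8 respiratory chain genes in each library (points), with the mean of 3 libraries (bars, from 0) and its SD (lines), for MIM-Astrocytes, Glioblastoma, NSC and Astrocytes. Sdha is low in Glioblastoma and NSC, Atp5a1 and Uqcrh are low in Glioblastoma while Atp5b is not, Uqcrq is low in NSC, Cox6a2 is at 58.4 to 68.6 FPKM in Glioblastoma, Cox7a1 is highest in Astrocytes and Cox8b in NSC.

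In complex IV most common subunits were low in NSC, and some restricted isoforms had orders of their own. Of 14 tested members, 2 were higher and 9 lower in NSC than in Astrocytes (median -0.44), and 8 were higher and 1 lower in MIM-Astrocytes than in Astrocytes (0.39). Between Glioblastoma and Astrocytes, 7 were higher, close to the 47.0% of all genes, and 2 were lower, against 31.3% of all genes. The median was 0.41 as deposited but -0.36 under quantile scaling and -0.21 with a common FPKM sum. Cox5a, a subunit on the matrix side, stood at 129, 136 and 135 FPKM in MIM-Astrocytes, 134, 146 and 159.5 in Glioblastoma, 70.5, 71.1 and 60.4 in NSC and 101, 102 and 78.8 in Astrocytes. NSC was lowest and Astrocytes next, while MIM-Astrocytes and Glioblastoma overlapped (Glioblastoma against Astrocytes 0.64, SE 0.11, adjusted p = 0.000353). Cox8a stood at 570.2, 715 and 653 FPKM in MIM-Astrocytes, 584, 649.9 and 670.5 in Glioblastoma, 364, 357 and 303 in NSC and 525, 587 and 454 in Astrocytes. For Cox5b, Cox6a1 and Cox7a2, differences of 0.51, 0.43 and 0.42 between Glioblastoma and Astrocytes were -0.36, -0.38 and -0.36 under quantile scaling and -0.11, -0.18 and -0.19 with a common FPKM sum. Cox7b, a membrane subunit, went the other way at 477, 484 and 452 FPKM in MIM-Astrocytes, 187, 224 and 249 in Glioblastoma, 322, 314 and 260.0 in NSC and 399.9, 449.9 and 347 in Astrocytes. Glioblastoma was the lowest group for Cox7b, without overlap (against Astrocytes -0.86, SE 0.13, adjusted p = 0.000147, against NSC -0.44, SE 0.13, adjusted p = 0.0122).

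Cox6a2, the heart and muscle form of subunit 6A (chr7:128205435-128206387, minus strand), was high in Glioblastoma alone among the 4 groups. It stood at 58.4, 65.1 and 68.6 FPKM in Glioblastoma, against 1.65, 2.6 and 1.83 in MIM-Astrocytes, 0.18, 0 and 0.102 in NSC and 0, 0 and 0.0361 in Astrocytes. The difference between Glioblastoma and Astrocytes was 6.00 (SE 0.11, adjusted p = 1.44e-11), a value that depends on the pseudocount because Astrocytes were at or near 0 (9.17 with a pseudocount of 0.1). MIM-Astrocytes were also above Astrocytes without overlap (1.57, SE 0.11, adjusted p = 7.20e-07), and this value depends on the pseudocount as well. Cox6a1, the common form, was at 311, 413 and 395 FPKM in MIM-Astrocytes, 417, 437 and 462 in Glioblastoma, 199.995, 198 and 169 in NSC and 329, 374 and 277 in Astrocytes, so Cox6a2 made up 12.3%, 13.0% and 12.9% of the pair in Glioblastoma and less than 1% in every other library. The 6 further muscle markers looked at beside it summed to 0.806 to 0.934 FPKM in Glioblastoma, all of them below 1 FPKM there, and to 1.20 to 1.71 FPKM in MIM-Astrocytes, 0.783 to 0.967 in NSC and 1.73 to 2.48 in Astrocytes. Itgad, on the opposite strand at this locus, averaged 0.446 FPKM in Glioblastoma, 0.0571 FPKM in NSC and 0 in both other groups.

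Cox7a1, the heart and muscle form of subunit 7A (chr7:30184144-30186078, plus strand), was highest in Astrocytes. It stood at 4.57, 4.71 and 5.31 FPKM in MIM-Astrocytes, 4.02, 6.46 and 6.39 in Glioblastoma, 2.98, 3.16 and 2.56 in NSC and 17.5, 22.1 and 19 in Astrocytes. Astrocytes lay far above all other groups, and NSC below them (MIM-Astrocytes against Astrocytes -1.80, SE 0.15, adjusted p = 2.15e-06, NSC against Astrocytes -2.39, SE 0.15, adjusted p = 1.58e-07). As a share of Cox7a1 and Cox7a2 together, Cox7a1 was 1.32% ± 0.158 in MIM-Astrocytes, 1.54% ± 0.276 in Glioblastoma, 1.73% ± 0.1004 in NSC and 6.90% ± 0.911 in Astrocytes (SD, n = 3 each). Cox8b, the muscle form of subunit 8, was low everywhere but highest in NSC, at 1.87, 2.85 and 2.11 FPKM in MIM-Astrocytes, 0.693, 0.792 and 1.07 in Glioblastoma, 3.69, 3.23 and 2.89 in NSC and 0.223, 0.138 and 0.109 in Astrocytes. The 4 groups did not overlap (NSC against Astrocytes 1.88, SE 0.12, adjusted p = 1.93e-07). The pseudocount makes this difference of Cox8b too small, since Astrocytes were below 1 FPKM. Cox6b2, known from testis, averaged 9.03 ± 1.18 FPKM in MIM-Astrocytes, 7.67 ± 1.33 in Glioblastoma, 5.22 ± 0.794 in NSC and 8.33 ± 0.700 in Astrocytes (SD, n = 3 each) and was called lower in NSC than in each other group.

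In complex V the 2 large subunits of the F1 head parted in Glioblastoma. Of 17 members, 11 were higher and none lower in MIM-Astrocytes than in Astrocytes (median 0.38), and 1 was higher and 13 were lower in NSC than in Astrocytes (-0.44). Against Astrocytes, Glioblastoma had 5 higher and 4 lower, beside 47.0% and 31.3% of all genes. The median was 0.03, but -0.27 under median-of-ratios scaling, -0.73 under quantile scaling and -0.59 with a common FPKM sum. Atp5a1, the alpha subunit, stood at 417, 490.0 and 461 FPKM in MIM-Astrocytes, 139, 133 and 145 in Glioblastoma, 303, 303 and 266 in NSC and 387, 440.0 and 347 in Astrocytes. Glioblastoma was the lowest group by a wide gap, with NSC next (Glioblastoma against Astrocytes -1.48, SE 0.10, adjusted p = 2.61e-07, against NSC -1.05, SE 0.10, adjusted p = 6.10e-06). Atp5b, the beta subunit, stood at 956, 1239 and 1128 FPKM in MIM-Astrocytes, 1134, 1096 and 1119.9 in Glioblastoma, 643, 608 and 549.6 in NSC and 883, 986 and 774 in Astrocytes. For Atp5b, NSC was the lowest group, and its difference of 0.35 between Glioblastoma and Astrocytes (SE 0.13, adjusted p = 0.0282) was -0.58 under quantile scaling and -0.27 with a common FPKM sum. Alpha and beta subunits alternate in equal number in the F1 head. The ratio of Atp5a1 to Atp5b, which does not change when all values of a library are multiplied by 1 factor (quantile scaling can change it), was 0.437, 0.396 and 0.409 in MIM-Astrocytes, 0.123, 0.121 and 0.130 in Glioblastoma, 0.471, 0.498 and 0.483 in NSC and 0.438, 0.446 and 0.448 in Astrocytes. Haus1, on the opposite strand at the Atp5a1 locus, averaged 10.5 FPKM in MIM-Astrocytes, 9.15 in Glioblastoma, 9.38 in NSC and 3.70 in Astrocytes.

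The stalk and the membrane ring of ATP synthase had orders of their own. Atp5j, coupling factor 6 of the peripheral stalk, stood at 175, 187 and 170.4 FPKM in MIM-Astrocytes, 73.9, 71.2 and 73.6 in Glioblastoma, 129, 112 and 101 in NSC and 121, 139 and 108 in Astrocytes. Glioblastoma was lowest and MIM-Astrocytes highest, and NSC and Astrocytes overlapped (MIM-Astrocytes against Glioblastoma 1.27, SE 0.10, adjusted p = 1.74e-06). Atp5j has a near-identical copy, of the kind described below, so its values are uncertain. The copy held 17.2% of gene and copy together in MIM-Astrocytes and 3.39% in Astrocytes. With the copy added, the difference between MIM-Astrocytes and Glioblastoma was 1.37. Atp5g1, Atp5g2 and Atp5g3 code for the same mature subunit c of the rotor ring. Atp5g3 stood at 369, 413 and 372 FPKM in MIM-Astrocytes, 174, 191 and 209 in Glioblastoma, 200.4, 191 and 163 in NSC and 217, 242 and 188 in Astrocytes, with MIM-Astrocytes above all others (against Astrocytes 0.84, SE 0.12, adjusted p = 0.000114). Atp5g1 stood at 133, 156 and 143 FPKM in MIM-Astrocytes, 124, 112 and 132 in Glioblastoma, 48, 50.1 and 40.9 in NSC and 114, 143 and 107 in Astrocytes, with NSC below all others (against Astrocytes -1.36, SE 0.12, adjusted p = 2.79e-06). Atp5g2 stood at 126, 217 and 185 FPKM in MIM-Astrocytes, 214, 257 and 278 in Glioblastoma, 187, 138 and 136 in NSC and 122, 91.1 and 103 in Astrocytes, with Glioblastoma above Astrocytes and overlapping MIM-Astrocytes. As a share of the 3 genes together, Atp5g3 was 54.8% in MIM-Astrocytes, 33.9% in Glioblastoma, 48.1% in NSC and 48.7% in Astrocytes, and Atp5g2 was 24.7%, 44.2%, 39.8% and 24.0% in the same order of groups. These shares are uncertain. Copies held 56.2% to 60.2% of gene and copies together for Atp5g1, by group, and 47.1% to 60.6% for Atp5g2, while Atp5g3 had none. With its copy added, Atp5g1 differed by -1.27 between NSC and Astrocytes. Atp5s and Atp5sl were among the lowest of the members that the rule assigns to the complex, at 8.80 to 17.9 FPKM and 5.70 to 14.3 FPKM over MIM-Astrocytes, Glioblastoma and Astrocytes and at 6.39 to 8.32 FPKM in NSC.

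**Figure D4:**
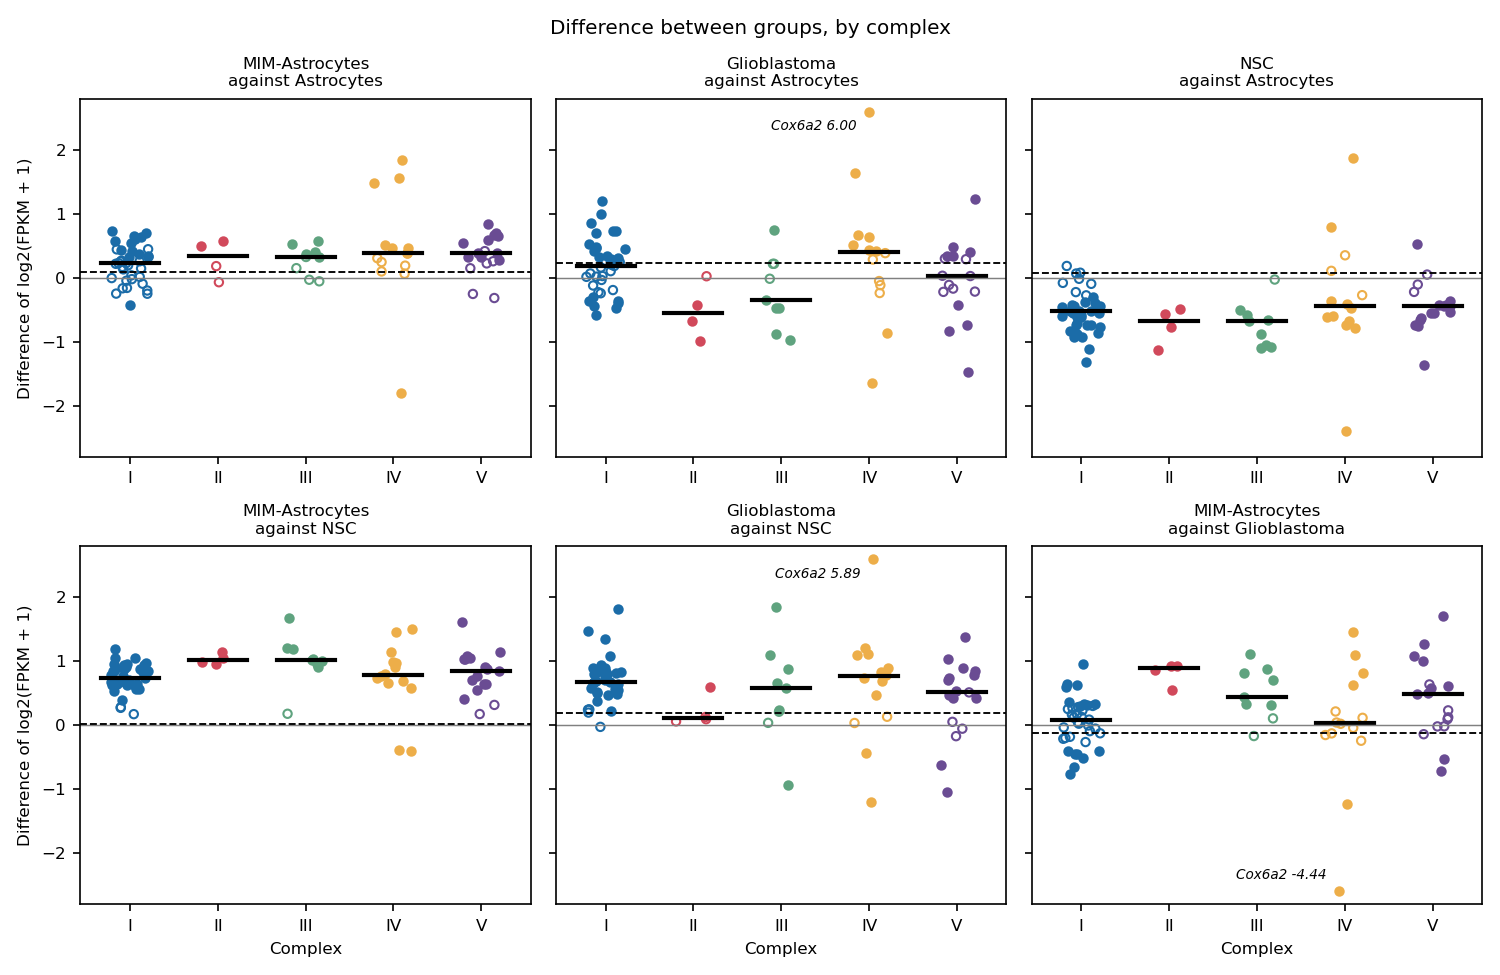
Difference of log2(FPKM + 1) between 2 groups for each tested gene (points, filled where called) by complex, with the median of the complex (thick line) and of all genes tested (dashed line), 1 panel per comparison. Cox6a2 lies beyond the axis in 3 panels and is drawn at the edge with its value. In NSC against Astrocytes the medians of all 5 complexes lie between -0.68 and -0.44, and in Glioblastoma against Astrocytes those of complexes II and III are below 0 and those of I, IV and V above it, where quantile scaling and a common FPKM sum put them below 0.

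Near-identical copies bear on several of these values. By alignment of annotated transcripts (GENCODE release M21), 25 of the 84 members had at least 1 copy with 95% identity over 200 bases or over 80% of the shorter transcript, 47 copies in all, of which 44 were pseudogenes. How the authors' counting shared reads between a gene and its copies is not given in the sources used here, so these members are uncertain. For Cox7a2l, the gene stood at 110.2, 117 and 101 FPKM in MIM-Astrocytes, 255, 258 and 263 in Glioblastoma, 155, 148 and 131 in NSC and 82.2, 97.5 and 70.7 in Astrocytes. Its copy Gm6969 stood at 122, 203 and 187 FPKM in MIM-Astrocytes, 114, 132 and 125 in Glioblastoma, 293, 277 and 221 in NSC and 133, 150.3 and 117 in Astrocytes. Gene and copy differ in which group is highest, and their sum was not called different between Glioblastoma and NSC (-0.09, adjusted p = 0.609, against 0.84, adjusted p = 6.52e-05, for the gene alone). Between Glioblastoma and Astrocytes the sum was still higher (0.83, adjusted p = 0.000335, against 1.63 for the gene alone). For Cox7c, a membrane subunit of complex IV, copies held 86.1% to 92.3% of the sum, and the difference between MIM-Astrocytes and Astrocytes was 1.85 (SE 0.28, adjusted p = 0.000194) for the gene and 1.03 (adjusted p = 4.74e-05) for the sum. For Ndufa12, of the N module of complex I, copies held 74.1% to 87.6%, and the difference of 1.21 between Glioblastoma and Astrocytes was 0.36 (adjusted p = 0.0596) for the sum. For Atp5g2 the difference between Glioblastoma and Astrocytes was 1.24 for the gene and 1.67 (adjusted p = 5.11e-07) for the sum.

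**Figure D5:**
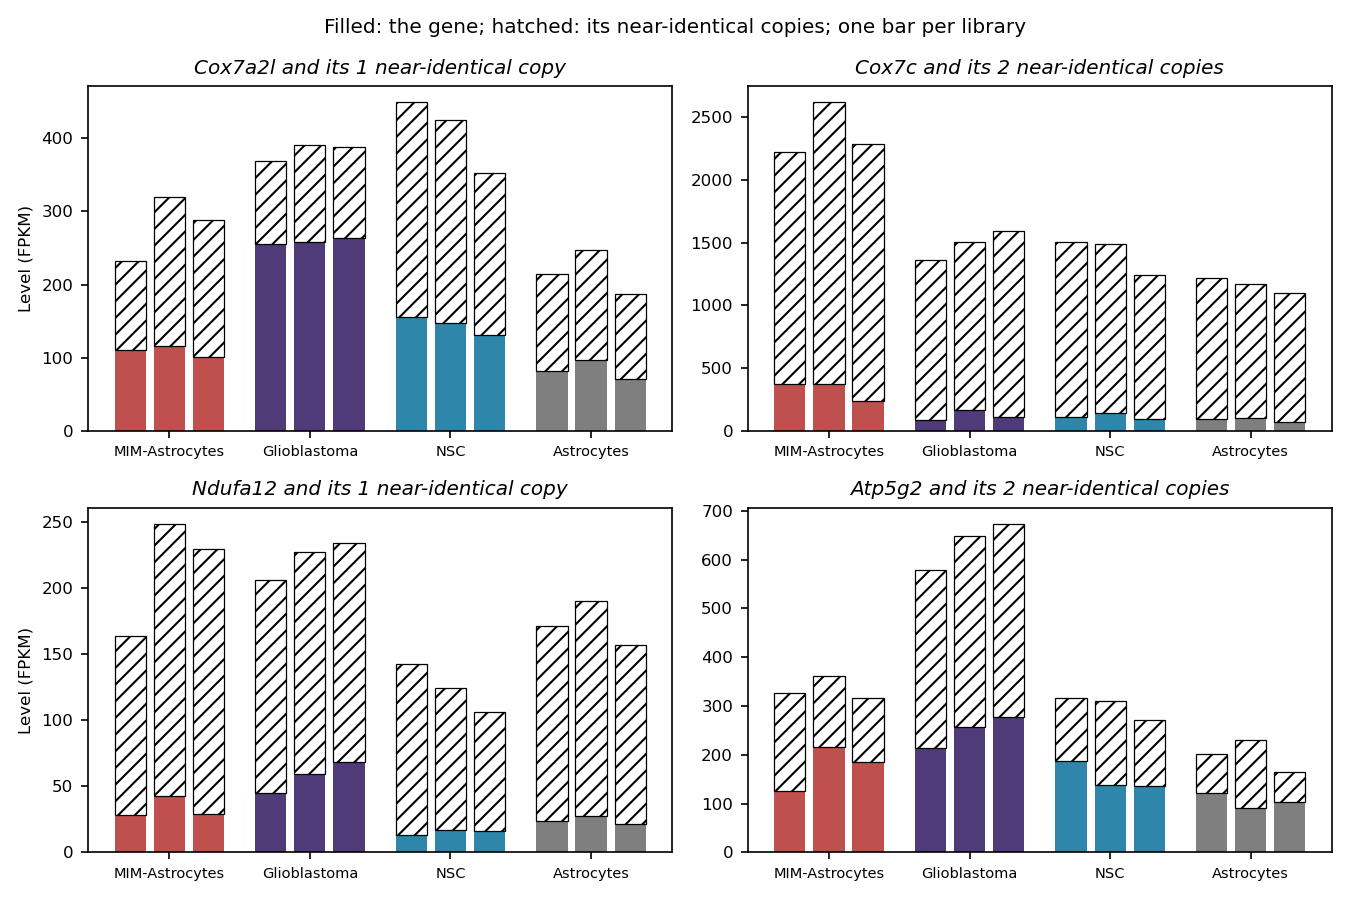
Level in FPKM of Cox7a2l, Cox7c, Ndufa12 and Atp5g2 (filled) and of their near-identical copies (hatched, stacked on the gene), 1 bar per library, by group. The copies hold most of the sum for Cox7c and Ndufa12, and for Cox7a2l they hold 32.3% in Glioblastoma, against 60.9% in MIM-Astrocytes, 64.5% in NSC and 61.5% in Astrocytes.

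Without the 25 members with copies, 56 tested members remained. Of these, 1 was higher and 46 lower in NSC than in Astrocytes (median -0.56), 51 higher and 1 lower in MIM-Astrocytes than in NSC (0.84), and 44 higher and 3 lower in Glioblastoma than in NSC (0.67). In MIM-Astrocytes against Astrocytes 26 were higher and 2 lower (0.31), and in Glioblastoma against Astrocytes 20 were higher and 14 lower (0.17). Over all genes 34.8% were called higher and 26.6% lower in the former, and 47.0% and 31.3% in the latter.

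The subunits that the mitochondrial genome encodes were compared in the same way. Of 13 such genes, 10 were higher and none lower in NSC than in Astrocytes with FPKM as deposited (median 0.51), but 2 were higher and 1 lower under quantile scaling (median -0.00) and with a common FPKM sum (0.11), while the nuclear members were lower in NSC under all 5 scalings. With FPKM as deposited, 6 of the 13 were higher and none lower in MIM-Astrocytes than in NSC, beside 31.0% and 24.9% of all genes. The median was 0.36, and 0.21 to 0.42 under the 4 other scalings. In Glioblastoma against NSC 5 were higher and 2 lower as deposited, beside 44.8% and 25.1% of all genes. Here the median was 0.18, but -0.15 to -0.04 under the 4 other scalings. Between Glioblastoma and Astrocytes 10 were higher and 1 lower as deposited (0.77), and 2 and 3 under quantile scaling (0.06). In MIM-Astrocytes against Astrocytes all 13 were higher as deposited (median 0.87), beside 34.8% of all genes. In MIM-Astrocytes against Glioblastoma 6 were higher and 1 lower as deposited (0.21), beside 28.3% and 41.5% of all genes. For both of these, counts under other scalings are not given here. mt-Cytb, cytochrome b of complex III, stood at 1246, 1053 and 1171 FPKM in MIM-Astrocytes, 1296, 1297 and 1323 in Glioblastoma, 955, 843 and 789 in NSC and 634, 574 and 620.1 in Astrocytes. Astrocytes were lowest and NSC next, although the difference of 0.50 between NSC and Astrocytes was -0.29 under quantile scaling. Cycs, the mobile carrier cytochrome c, stood at 35.8, 39.9 and 38.7 FPKM in MIM-Astrocytes, 46.8, 54.7 and 57.6 in Glioblastoma, 12.1, 13.5 and 11.8 in NSC and 31.9, 33.7 and 26.1 in Astrocytes, with NSC below all others (against Astrocytes -1.22, SE 0.11, adjusted p = 2.11e-06).

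Most genes of several neighbouring mitochondrial pathways were also lower in NSC than in Astrocytes. Against Astrocytes, none of 24 genes of the TCA cycle and pyruvate entry was higher and 20 were lower in NSC (median -0.74), 7 were higher and 13 lower in Glioblastoma (-0.35), and 8 were higher and 9 lower in MIM-Astrocytes (0.02). The medians in NSC and in Glioblastoma stayed below 0 under the 4 other scalings, and that in MIM-Astrocytes was -0.32 to 0.02. Over all genes 37.7% were called higher and 33.4% lower in NSC, 47.0% and 31.3% in Glioblastoma, and 34.8% and 26.6% in MIM-Astrocytes, each against Astrocytes. Pcx, pyruvate carboxylase, stood at 31.8, 35.9 and 35.8 FPKM in MIM-Astrocytes, 4.43, 4.47 and 4.1 in Glioblastoma, 24, 24.5 and 22 in NSC and 219, 229 and 213 in Astrocytes. Of 8 other dehydrogenases that feed ubiquinone, 1 was higher and 7 lower in NSC than in Astrocytes (-1.32), 1 was higher and 6 lower in Glioblastoma than in Astrocytes (-1.23), and 1 was higher and 3 lower in MIM-Astrocytes than in Astrocytes (0.08, but -0.03 under median-of-ratios scaling, -0.15 under quantile scaling and -0.25 with a common FPKM sum). Gpd2, mitochondrial glycerol phosphate dehydrogenase, stood at 148, 145 and 148 FPKM in MIM-Astrocytes, 10.7, 10.7 and 12 in Glioblastoma, 13.4, 14.7 and 11.5 in NSC and 130.5, 135 and 128 in Astrocytes, and so parted both astrocyte groups from Glioblastoma and NSC as Sdha did (Glioblastoma against Astrocytes -3.45, SE 0.08, adjusted p = 4.94e-11). Of the 6 tested carriers of ADP, ATP and phosphate and outer membrane channels, 1 was higher and 5 lower in NSC than in Astrocytes (median -0.50, and -0.89 to -0.35 under the 4 other scalings). Slc25a4, an ADP/ATP carrier known from heart and muscle, averaged 268 ± 13.7 FPKM in MIM-Astrocytes, 198 ± 7.70 in Glioblastoma, 128 ± 12.1 in NSC and 229 ± 28.3 in Astrocytes (SD, n = 3 each). Slc25a5, the form of proliferating cells, averaged 475 ± 19.1 FPKM in MIM-Astrocytes, 291 ± 6.48 in Glioblastoma, 360.4 ± 41.7 in NSC and 235 ± 27.2 in Astrocytes (SD, n = 3 each), and was the carrier gene called higher in NSC (0.61, SE 0.10, adjusted p = 0.000380).

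Of 14 tested factors of complex I, 1 was higher and 10 lower in NSC than in Astrocytes, 4 higher and 3 lower in Glioblastoma, and 4 higher and 1 lower in MIM-Astrocytes, with medians of -0.36, 0.03 and 0.15. Of 24 factors of complex IV, 5 were higher and 13 lower in NSC than in Astrocytes, 7 higher and 9 lower in Glioblastoma, and 11 higher and 7 lower in MIM-Astrocytes, with medians of -0.35, 0.01 and 0.18. Over all genes 37.7% were called higher and 33.4% lower in NSC, 47.0% and 31.3% in Glioblastoma, and 34.8% and 26.6% in MIM-Astrocytes, each against Astrocytes. For both lists the median in NSC stayed below 0 under all 5 scalings, that in Glioblastoma was below 0 under the 4 other scalings, and that in MIM-Astrocytes was below 0 with a common FPKM sum. Higd1a, which binds complex IV, stood at 76.7, 79.8 and 71.7 FPKM in MIM-Astrocytes, 69.1, 81.8 and 84.1 in Glioblastoma, 23.1, 23.4 and 19 in NSC and 104, 118 and 94.4 in Astrocytes (NSC against Astrocytes -2.22, SE 0.11, adjusted p = 2.69e-08). Of the 6 factors of complex III, 5 were higher and none lower in Glioblastoma than in Astrocytes. The median was 0.50, but -0.01 with a common FPKM sum, while 5 of the 9 subunits were lower. In NSC against Astrocytes, none of these 6 factors was higher and 1 was lower as deposited (median -0.19). Of the 4 genes listed as factors or inhibitor of complex V, 1 was higher and 2 lower in that comparison (-0.13). Bcs1l, which inserts the Rieske protein, stood at 6.82, 7.68 and 7.65 FPKM in MIM-Astrocytes, 13.3, 13.1 and 12.9 in Glioblastoma, 4.6, 5.45 and 5.15 in NSC and 5.46, 5.61 and 6.12 in Astrocytes (Glioblastoma against Astrocytes 1.07, SE 0.07, adjusted p = 1.00e-07). Atpif1, the inhibitor of ATP synthase, averaged 163 FPKM in MIM-Astrocytes, 181 in Glioblastoma, 168 in NSC and 147 in Astrocytes and was called only between Glioblastoma and Astrocytes (0.31, SE 0.13, adjusted p = 0.0429, but -0.27 under quantile scaling and -0.30 with a common FPKM sum).

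Among 22 tested regulators of mitochondrial genes, 9 were higher and 3 lower in NSC than in Astrocytes (median 0.21), 15 were higher and 4 lower in Glioblastoma (0.71), and 9 were higher and 2 lower in MIM-Astrocytes (0.15). Over all genes 37.7%, 47.0% and 34.8% were called higher in these 3 comparisons and 33.4%, 31.3% and 26.6% lower. With a common FPKM sum the medians of the regulators were -0.12, 0.13 and -0.14. Nrf1, the factor of the NRF1 core, stood at 12.9, 17.3 and 16.6 FPKM in MIM-Astrocytes, 21.7, 23.1 and 25.2 in Glioblastoma, 18.8, 18.7 and 18.4 in NSC and 10.8, 11 and 10.3 in Astrocytes. NSC therefore had more Nrf1 than both astrocyte groups (against Astrocytes 0.75, SE 0.10, adjusted p = 4.61e-05) while most members were lower there. Gabpa, the DNA-binding part of the ETS factor GABP, stood at 34, 24.3 and 24.1 FPKM in MIM-Astrocytes, 16.4, 16.9 and 16.8 in Glioblastoma, 30.6, 31.3 and 26.6 in NSC and 25.1, 25.9 and 23.1 in Astrocytes. Glioblastoma was its lowest group (against Astrocytes -0.54, SE 0.12, adjusted p = 0.00188). Gabpa lies on the opposite strand beside Atp5j, for which Glioblastoma was also lowest, and since the strandedness of the libraries is not given, reads where their exons overlap cannot be told apart. Ppargc1a, the coactivator PGC-1alpha, stood at 12.9, 13.9 and 16.1 FPKM in MIM-Astrocytes, 7.16, 7.48 and 7.48 in Glioblastoma, 10.5, 11.2 and 12 in NSC and 18.3, 18.7 and 17.7 in Astrocytes, with no overlap between groups (Glioblastoma against Astrocytes -1.20, SE 0.08, adjusted p = 1.16e-07). Its relative Ppargc1b stayed between 0.251 and 0.815 FPKM in all libraries. Esrra, the receptor ERR-alpha, averaged 16.9 FPKM in MIM-Astrocytes, 27.8 in Glioblastoma, 12.9 in NSC and 20.8 in Astrocytes, and was lower in NSC than in Astrocytes (-0.64, SE 0.13, adjusted p = 0.00103). Tfam, which packs mitochondrial DNA, averaged 17.5 FPKM in MIM-Astrocytes, 29.3 in Glioblastoma, 17.96 in NSC and 15.95 in Astrocytes. Myc averaged 4.09 FPKM in MIM-Astrocytes, 23.3 in Glioblastoma, 7.13 in NSC and 3.45 in Astrocytes, and Hif1a, the oxygen-regulated factor, 45.8, 69.3, 34.4 and 28.1 FPKM in the same order. No relation of these factors to the members was tested.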

How the data were processed

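RNA from 12 libraries was sequenced, and the authors deposited 1 table per library with FPKM and its interval for each gene, made with Cufflinks (version not given) on GRCm38, per the submitters' processing notes. The aligner, the annotation and the strandedness are not given in the sources used here. Values of identifiers on several lines were added. Genes with at least 1 FPKM in at least 3 libraries and an OK status in all 12 were tested with limma 3.58.1 (R 4.3.3; eBayes with a trend) on log2(FPKM + 1), with 1 mean per group over all 12 libraries, two-sided, and Benjamini-Hochberg adjustment over 16982 genes at 0.05. The procedure was tested on simulated data. Because the files hold no counts, the depth is unknown and no count test was used. Copies were found with blastn 2.17.0 among GENCODE M21 transcripts, and promoter windows came from RefSeq (GRCm38.p6). Alternatives were other pseudocounts, filters and scalings, fits without each library, a replicate block, array weights, 6 libraries only and copies added (chosen after seeing the data). Values of 1 member are not reported here, although it stays in the counts. The members and lists were chosen with earlier results of these data known. Members are named by role or because a called difference was among the largest of its comparison. The latter were picked as extremes, and their sizes, p-values and lack of overlap are to be read with that in mind. Other genes are named by role and by the smallest p in each list. The neighbours on the opposite strand were chosen after their values were seen.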

Additional observations from a re-analysis of the deposited data

How the results depend on the processing

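In MIM-Astrocytes against Astrocytes the members called higher numbered 25 under quantile scaling, 13 with a common FPKM sum and 59 with array weights, and those lower 8 under median-of-ratios scaling, 21 under quantile scaling, 18 with a common FPKM sum, 7 with a common protein-coding sum, 4 with the replicate block and 5 with array weights. The median was 0.018 under quantile scaling and -0.012 with a common FPKM sum; for complex I it was -0.013 and -0.104, and for complex III -0.012 with a common FPKM sum. In Glioblastoma against Astrocytes (median-of-ratios, quantile, common FPKM sum) 12, 9 and 7 were higher and 39, 60 and 58 lower, with 35 lower under a common protein-coding sum; the medians were -0.23, -0.48 and -0.54 over all members, -0.11, -0.28 and -0.43 in complex I and -0.27, -0.73 and -0.59 in complex V, and in complex IV -0.36 (quantile) and -0.21 (common FPKM sum). In NSC against Astrocytes 8 were higher with a common protein-coding sum and 1 among members without copies, and the median was -0.94 with a common FPKM sum. In MIM-Astrocytes against NSC 1 was lower with a pseudocount of 0.1, with no filter, with a mean of at least 5 FPKM, with 6 libraries only and with the replicate block. In Glioblastoma against NSC 13 were lower under quantile scaling and 12 with a common protein-coding sum; in the order median-of-ratios, quantile, common FPKM sum and common protein-coding sum, the median was 0.43, 0.31, 0.45 and 0.35 over all members and -0.13, -0.21, -0.11 and -0.21 in complex II. In MIM-Astrocytes against Glioblastoma, in that order, 50, 62, 56 and 55 were higher with medians of 0.36, 0.50, 0.45 and 0.34, and 5 were lower with a common FPKM sum. Of called members, 14 changed sign under quantile scaling and 16 with a common FPKM sum in Glioblastoma against Astrocytes, among them Cox5b (-0.36 and -0.11), Cox6a1 (-0.38 and -0.18), Cox7a2 (-0.36 and -0.19) and Atp5b (-0.58 and -0.27). In MIM-Astrocytes against Astrocytes 3 and 5 did, among them Atp5b (-0.072 and -0.0099), Uqcrfs1 (-0.013 with a common FPKM sum) and Cox6b1 (-0.026 under quantile scaling), and in Glioblastoma against NSC those that did included Cox7a2l (-0.087 with its copy added). The cause was not tested. Leaving out each library in turn gave 23 to 50 higher, 2 to 4 lower and a median of 0.22 to 0.40 in MIM-Astrocytes against Astrocytes; 16 to 33, 17 to 24 and -0.02 to 0.18 in Glioblastoma against Astrocytes; 2 to 3, 52 to 65 and -0.63 to -0.44 in NSC against Astrocytes; 73 to 74, 1 to 2 and 0.74 to 0.91 in MIM-Astrocytes against NSC; 54 to 60, 4 to 5 and 0.59 to 0.71 in Glioblastoma against NSC; and 28 to 33, 8 to 12 and 0.11 to 0.23 in MIM-Astrocytes against Glioblastoma. Libraries of different groups with the same replicate number correlated in their deviations at -0.058 to 0.097 (18 pairs). Those with different numbers correlated at -0.121 to 0.074 (36 pairs). These ranges overlap and do not decide whether the numbers pair samples. The labels do not say that they do, so the numbers were not taken as pairing.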
